A study of Mus musculus with 11 samples.

Results

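Transcript levels of 10 genes of the ADAMTS family (a disintegrin and metalloproteinase with thrombospondin motifs) were examined in pancreatic tumors grown in mice with or without the kinase PKN2 in the host. The genes were Adamts1, Adamts2, Adamts4, Adamts5, Adamts6, Adamts9, Adamts10, Adamts12, Adamts14 and Adamts15, chosen by name from the 54232 Ensembl genes of the count table, and all 10 were present and passed the filter on low counts. The samples were 11 orthotopic tumors from female adult C57BL/6 mice, of which 6 grew in PKN2 KO hosts (lettered A to F) and 5 in PKN2 WT hosts (lettered A to E). All hosts carried a tamoxifen-inducible Cre recombinase on the Rosa26 allele, KO hosts in addition carried floxed alleles of Pkn2, and both groups received the same course of tamoxifen before carcinoma cells were injected into the pancreas. The injected TB32048 cells, a line from a female mouse with genetically engineered pancreatic cancer, kept their own Pkn2 in both groups. Cre was active throughout the host rather than in stellate cells alone, all tumors came from the same carcinoma line, and they were collected at a single time point. Nothing in the labels marks a batch.

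ADAMTS proteases are secreted zinc enzymes that cut proteins of the extracellular matrix. A prodomain is removed by proprotein convertases such as furin, and the thrombospondin repeats and spacer that follow the catalytic domain hold the enzyme to its substrate. In connective tissue and tumor stroma, fibroblasts, mural cells and endothelial cells are known sources. The 10 genes were grouped by the substrate best known for each product. ADAMTS1, ADAMTS4, ADAMTS5, ADAMTS9 and ADAMTS15 cleave the large hyaluronan-binding proteoglycans versican and aggrecan. ADAMTS2 and ADAMTS14 remove the amino-terminal propeptide of fibrillar procollagens, a step needed for regular collagen fibrils. ADAMTS6 and ADAMTS10 act on fibrillin microfibrils, the scaffold of elastic fibers, and ADAMTS12 cleaves cartilage oligomeric matrix protein (COMP).

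Positions of the genes are given on GRCm38. Adamts1 (ENSMUSG00000022893, chromosome 16, 85793827 to 85803113) and Adamts5 (ENSMUSG00000022894, chromosome 16, 85856173 to 85901828) lie side by side on the minus strand, 53059 bases apart. The other proteoglycan-cleaving members are Adamts4 (ENSMUSG00000006403, chromosome 1, 171250421 to 171260637, plus strand), Adamts9 (ENSMUSG00000030022, chromosome 6, 92772699 to 92943492, minus strand) and Adamts15 (ENSMUSG00000033453, chromosome 9, 30899155 to 30922452, minus strand). The procollagen proteinase genes are Adamts2 (ENSMUSG00000036545, chromosome 11, 50602084 to 50807573, plus strand) and Adamts14 (ENSMUSG00000059901, chromosome 10, 61197112 to 61273438, minus strand). Adamts6 (ENSMUSG00000046169, chromosome 13, 104287835 to 104496695), Adamts10 (ENSMUSG00000024299, chromosome 17, 33524204 to 33553782) and Adamts12 (ENSMUSG00000047497, chromosome 15, 11064790 to 11349231) are all on the plus strand. All 10 are protein coding, and their transcripts are long, with 4.81 kb of merged exons in Adamts4 to 15.05 kb in Adamts9, between the 61.2 and the 97.8 percentile of the genes tested. No exon of a member overlaps an exon of another gene on its own strand. Exons of Adamts4 and Adamts9 overlap exons of other genes on the opposite strand. The libraries were stranded, but the strand setting of the counting step was not given in the sources used here, so that reads of those genes may enter the counts of these members.

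The start regions of the genes were compared because several members varied together across tumors. RefSeq promoter sequence on GRCm38.p6 was matched by symbol for 5 of the 10 members, namely Adamts1, Adamts2, Adamts9, Adamts12 and Adamts14, and the 250 bases before the annotated start were searched on both strands. Those of Adamts1, Adamts2 and Adamts12 are shown 5′ to 3′ on the strand of the gene. Adamts2 and Adamts1 had the highest levels, and Adamts12 had the smallest edgeR p among members with a higher mean in KO tumors. Capitals mark the TATA box letters TATAAA and the GC box letters GGGCGG or their complement CCGCCC.
Adamts1 (chr16:85803114-85803363, minus strand): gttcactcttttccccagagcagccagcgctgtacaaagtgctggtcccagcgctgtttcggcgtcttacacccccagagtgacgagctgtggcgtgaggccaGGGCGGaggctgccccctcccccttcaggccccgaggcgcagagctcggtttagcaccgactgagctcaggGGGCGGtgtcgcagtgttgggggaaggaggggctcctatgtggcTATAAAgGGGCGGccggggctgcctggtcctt
Adamts2 (chr11:50601835-50602084, plus strand): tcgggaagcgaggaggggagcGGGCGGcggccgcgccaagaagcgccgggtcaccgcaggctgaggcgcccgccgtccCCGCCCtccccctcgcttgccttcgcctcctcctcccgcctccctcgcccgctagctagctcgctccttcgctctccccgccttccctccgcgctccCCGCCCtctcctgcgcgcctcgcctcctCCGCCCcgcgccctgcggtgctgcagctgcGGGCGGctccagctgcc
Adamts12 (chr15:11064523-11064772, plus strand): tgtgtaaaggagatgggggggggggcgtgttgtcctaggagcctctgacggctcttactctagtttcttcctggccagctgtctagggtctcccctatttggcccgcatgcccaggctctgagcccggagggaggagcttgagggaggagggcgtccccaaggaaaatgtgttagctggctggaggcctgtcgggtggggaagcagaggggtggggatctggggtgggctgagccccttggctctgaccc
These start regions are rich in G and C, which made up 65.6% of the bases in Adamts1, 78% in Adamts2, 63.2% in Adamts12, 76.4% in Adamts14 and 71.2% in Adamts9, against a median of 52.4% over 32851 promoter windows. Adamts1 had a TATA box starting 32 bases before the start and 3 GC boxes. Adamts2 had 5 GC boxes, Adamts14 had 6, Adamts9 had 1 and Adamts12 had none of either motif. Of all windows, 12.4% held TATAAA and 32.7% held GGGCGG. The letters GGAATG (TEAD, present in 12.6% of all windows), TGANTCA (AP-1, 6.75%), CAGACA (SMAD, 17.1%) and the NF-kB consensus searched (0.14%) were in none of the 5 windows, which describes these letters in these windows alone.

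Total counts ranged from 22791627 to 28017673 in KO tumors and from 16294128 to 31121422 in WT tumors, so that 3 counts, taken as the smallest visible level, correspond to between 0.0964 and 0.184 CPM (counts-per-million values on TMM-scaled library sizes in what follows). Every member had at least 40 counts in every tumor. The targeted gene Pkn2 averaged 96.6 ± 9.34 CPM in KO tumors (SD, n = 6) and 96.7 ± 34.6 CPM in WT tumors (SD, n = 5), and since carcinoma cells with intact Pkn2 contribute to both, it does not check the genotype. Markers of carcinoma epithelium summed to between 2725 and 9488 CPM and those of fibroblasts to between 1785 and 6322 CPM, so that both compartments were present in every tumor. Some WT tumors stood apart. Ribosomal RNA (Gm42418 together with the mitochondrial mt-Rnr1 and mt-Rnr2) took 6.39% of counts in WT replicate B and 0.241% in WT replicate E. These were the highest and lowest of the 11 tumors, against 0.308% to 0.739% in KO tumors. The rank correlation across 16530 genes between exonic length and the deviation of a gene from its mean was negative in 3 WT tumors, at -0.505 in replicate A, -0.456 in B and -0.176 in C, while the remaining tumors lay between 0.122 and 0.407; genes are not independent replicates. Results below are given with and without these libraries where that mattered.

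Levels were first compared between genes, per kilobase of merged exon. Adamts2 was highest at 10.4 ± 4.22 CPM per kb (SD, n = 11 tumors), followed by Adamts1 at 9.05 ± 9.98, Adamts10 at 4.79 ± 1.57 and Adamts4 at 4.45 ± 2.00 CPM per kb. Adamts12 stood at 2.99 ± 1.53 and Adamts15 at 1.93 ± 1.22 CPM per kb. Adamts6, Adamts9, Adamts5 and Adamts14 came last at 1.56 ± 0.579, 1.35 ± 0.631, 1.34 ± 0.752 and 1.32 ± 0.414 CPM per kb. Adamts15 exceeded Adamts6 in 6 of 11 tumors. Over all tumors the order thus put a procollagen proteinase gene, Adamts2, at the top and its close relative Adamts14 at the bottom. Of the 9 pairs of neighbors in this order, 2 differed within tumors beyond their spread in an exact two-sided sign-flip permutation test on log2 values. Adamts4 exceeded Adamts12 in 10 of 11 tumors, by 0.65 ± 0.51 on the log2 scale (SD, exact p = 0.00293, adjusted over the 9 pairs 0.0132), and Adamts12 exceeded Adamts15 in 10 of 11, by 0.77 ± 0.73 (exact p = 0.00293, adjusted 0.0132). The order of group means turned for the leading genes. In KO tumors the mean of Adamts1 (11.6 ± 13.0 CPM per kb, SD, n = 6) was above that of Adamts2 (11.2 ± 2.08). This rested on KO replicate F, where Adamts1 was at 37.5 CPM per kb. Adamts2 was the higher gene in KO replicates A to D, and in 8 of all 11 tumors. The KO mean of Adamts4 (4.88 ± 0.765) was above that of Adamts10 (3.98 ± 0.40). In WT tumors Adamts2 and Adamts10 had the higher means, and Adamts10 exceeded Adamts4 in 3 of 11 tumors. The other 7 pairs did not pass the threshold, with adjusted exact p from 0.328 to 0.987. Among the products of the 10 genes combined, Adamts2 made up 17.9% to 36.2% of the per-kb total in single tumors, and Adamts1 10.5% to 49.9%.

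**Figure D1:**
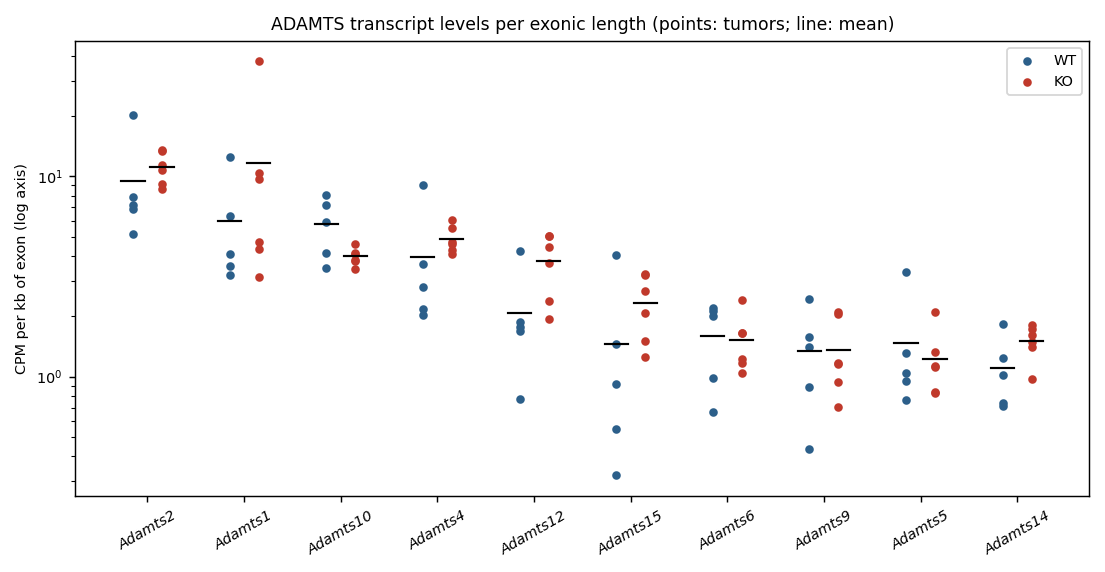
Transcript level of each ADAMTS gene in CPM per kilobase of merged exon (log axis), with genes ordered by their mean over 11 tumors, points for single tumors (blue WT, red KO) and a line at each group mean. Adamts2 and Adamts1 lead at means of 10.4 and 9.05, and the highest single value is 37.5, for Adamts1 in a KO tumor.

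The comparison of KO with WT tumors asked whether ADAMTS transcripts differed with PKN2 in the host. None of the 10 genes passed the threshold of the edgeR quasi-likelihood test (adjusted p under 0.05 over all 16536 tested genes), which 0.0181% of all tested genes passed, and none passed in DESeq2, where 5.02% of genes did. At an unadjusted p under 0.05 there were 2 of 10 members in edgeR, Adamts12 with a higher mean and Adamts10 with a lower mean in KO tumors, where 24% of all tested genes reached that level (8.57% higher and 15.5% lower); DESeq2 also gave 2, against a background of 16.5% (6.24% higher and 10.2% lower). A share of 2 in 10 is near this background. The DESeq2 shares are over 29689 genes with any count and the edgeR shares over 16536 filtered genes, so they are not directly comparable. The log2 fold change was above 0 for 7 members and below 0 for 3, with a median of 0.27. Over all tested genes the median was -0.026, and 7943 of 16536 were above 0. The KO and WT ranges overlapped for all 10 members, whereas 3.6% of tested genes had no overlap. In bulk tumors, fewer cells of a type and less RNA per cell cannot be told apart. The count of 2 members changed when any of 8 of the 11 tumors was left out. It was 1 without any of KO replicates C, D, E or F or WT replicates A or C, 0 without WT replicate B, and 5 without WT replicate E. Without WT replicate D it stayed at 2, against 29.2% of all tested genes. There Adamts1 (edgeR unadjusted p = 0.0452) took the place of Adamts12 (edgeR unadjusted p = 0.0771). The share of all tested genes at that level moved as well. It was 19.6% to 23.8% in the fits that gave 1, 16.3% without WT replicate B and 32.1% without WT replicate E.

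**Figure D2:**
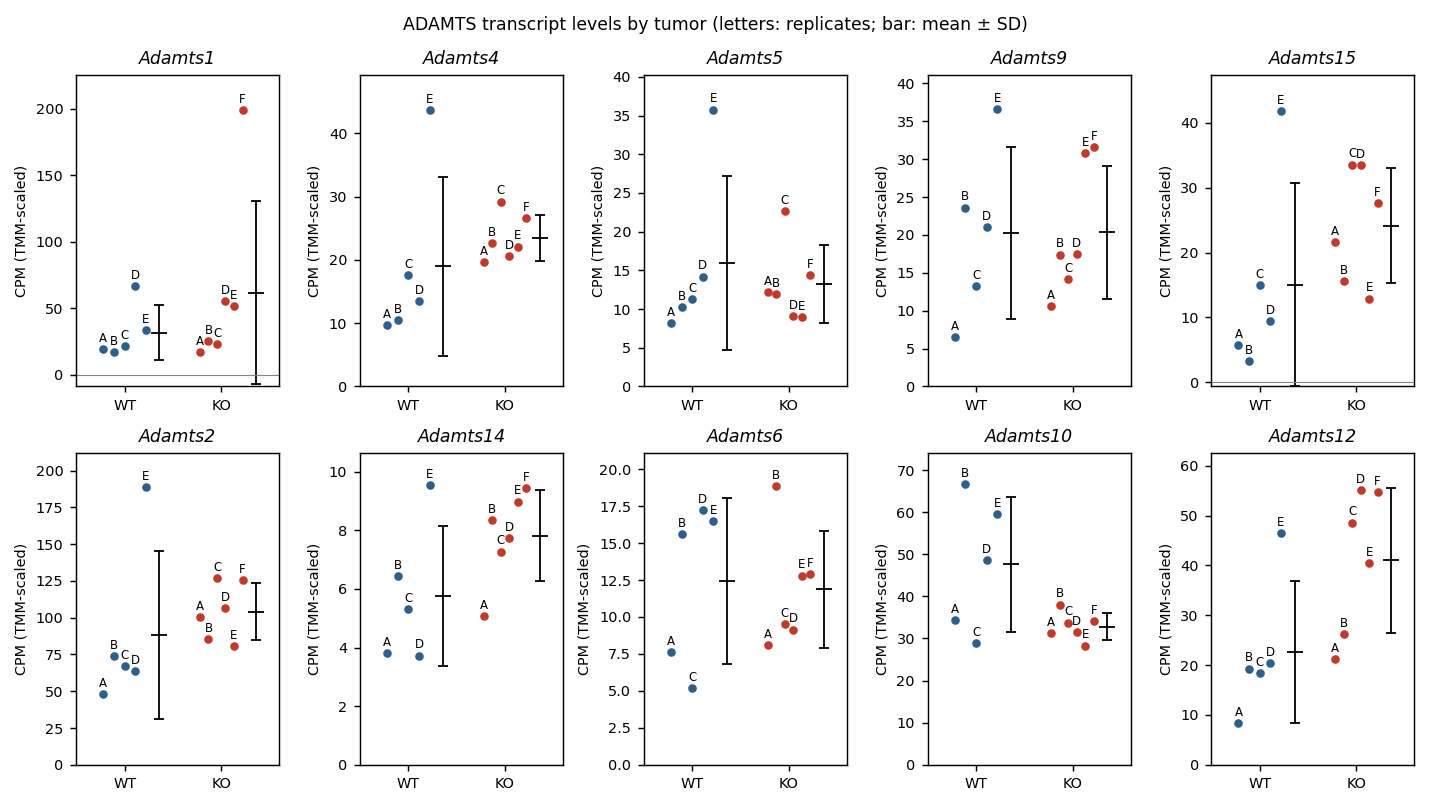
Transcript level of each ADAMTS gene in CPM with TMM-scaled library sizes, 1 panel per gene, with a lettered point for each of 5 WT (blue) and 6 KO (red) tumors and a bar at the mean ± SD of each group. WT replicate E is the highest WT point in 7 of 10 panels, and KO replicate F reaches 199 CPM for Adamts1.

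Adamts12, whose product degrades COMP, had the smallest p among members with a higher mean in KO tumors. It was at 8.42, 19.3, 18.4, 20.4 and 46.5 CPM in WT replicates A to E, and at 21.2 (lowest), 44.5 (median) and 55.2 CPM (highest) in KO tumors. All 6 KO tumors lay above WT replicates A to D, while WT replicate E lay within the KO range. The log2 fold change was 0.86 (SE 0.38, edgeR unadjusted p = 0.0431, adjusted p = 0.195). It stayed above 0 in all 21 alternative fits, from 0.30 without WT replicates A, B and C to 1.38 without WT replicates B and E. The edgeR unadjusted p was 0.059 to 0.0901 when any of KO replicates C to F or WT replicates A to D was left out. It was 0.0226 without KO replicate A, 0.0325 without KO replicate B and 0.00201 without WT replicate E.

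Adamts10 had a lower mean in KO tumors. ADAMTS10 binds fibrillin, and loss of the gene in people causes Weill-Marchesani syndrome, a disorder of stature, joints and lens. Adamts10 was at 34.3, 66.7, 28.9, 48.6 and 59.5 CPM in WT replicates A to E, and at 28.3 (lowest), 32.6 (median) and 38.0 CPM (highest) in KO tumors. No KO tumor exceeded the WT median, but WT replicates A and C fell within the KO range. The log2 fold change was -0.54 (SE 0.21, edgeR unadjusted p = 0.0233, adjusted p = 0.15), and it stayed below 0 in all 21 alternative fits, from -0.78 with an offset for gene length to -0.18 without WT replicates B and E. The spread among KO tumors was small, with an SD of 3.30 CPM against 16.1 CPM among WT tumors.

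Adamts6, the close relative of Adamts10, did not share this pattern. It was at 7.64, 15.6, 5.21, 17.2 and 16.5 CPM in WT replicates A to E, and at 8.09 (lowest), 11.2 (median) and 18.9 CPM (highest) in KO tumors. WT tumors fell into a low pair, A and C, and a high trio, and the KO tumors were spread over the same range. The log2 fold change was -0.066 (SE 0.33, edgeR adjusted p = 0.922) and changed sign in 5 of 21 alternative fits.

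Among the procollagen proteinase genes, Adamts2 was at 48.2, 73.9, 67.0, 63.9 and 189 CPM in WT replicates A to E, and at 80.5 (lowest), 103 (median) and 127 CPM (highest) in KO tumors. Every KO tumor was above WT replicates A to D and below WT replicate E. The log2 fold change was 0.24 (SE 0.31, edgeR adjusted p = 0.661) with all tumors, 0.72 (SE 0.18, edgeR adjusted p = 0.0356) without WT replicate E, and -0.27 (SE 0.34, edgeR adjusted p = 0.705) without WT replicates A, B and C. Adamts14 followed a similar course at a lower level, with 3.82, 6.43, 5.31, 3.72 and 9.55 CPM in WT replicates A to E and 5.08 (lowest), 8.04 (median) and 9.43 CPM (highest) in KO tumors. In 5 of 6 KO tumors it exceeded WT replicates A to D. Its log2 fold change was 0.44 (SE 0.28, edgeR adjusted p = 0.352) and stayed above 0 in all 21 alternative fits, from 0.24 to 0.87.

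Of the 5 proteoglycan-cleaving members, Adamts1 had the largest log2 fold change, 0.96, but also the largest error (SE 0.62, edgeR adjusted p = 0.35). ADAMTS1 is known from ovulation, where it cleaves versican. Its gene was at 19.0, 17.0, 21.6, 66.5 and 33.8 CPM in WT replicates A to E, and at 16.7 (lowest), 38.2 (median) and 199 CPM (highest) in KO tumors. The groups overlapped over most of their range, and the highest value, in KO replicate F, stood far above the next, which was in WT replicate D. Without KO replicate F the log2 fold change was 0.11 (edgeR adjusted p = 0.90), and without WT replicate D it was 1.43 (edgeR adjusted p = 0.163). The neighboring gene Adamts5 did not share the high value of KO replicate F, where it was at 14.4 CPM.

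Adamts4, an aggrecanase gene, was at 9.72, 10.4, 17.6, 13.5 and 43.7 CPM in WT replicates A to E, and at 19.6 (lowest), 22.4 (median) and 29.2 CPM (highest) in KO tumors. All KO tumors lay in a narrow band above WT replicates A to D and below WT replicate E. The log2 fold change was 0.30 (SE 0.35, edgeR adjusted p = 0.617) with all tumors, 0.87 (SE 0.21, edgeR adjusted p = 0.0329) without WT replicate E and -0.28 (SE 0.35, edgeR adjusted p = 0.707) without WT replicates A, B and C.

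Adamts15, which encodes a versican-cleaving enzyme, had the largest spread among WT tumors relative to its mean. It was at 5.68, 3.34, 15.0, 9.48 and 41.8 CPM in WT replicates A to E, and at 12.9 (lowest), 24.6 (median) and 33.5 CPM (highest) in KO tumors. All KO tumors exceeded the WT median, and the lowest KO tumor, replicate E, lay below WT replicate C. The log2 fold change was 0.67 (SE 0.53, edgeR adjusted p = 0.452) with all tumors, 1.52 (SE 0.42, edgeR adjusted p = 0.0412) without WT replicate E and -0.085 (SE 0.52, edgeR adjusted p = 0.95) without WT replicates A, B and C.

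Adamts5, the other main aggrecanase gene, was at 8.20, 10.3, 11.3, 14.2 and 35.8 CPM in WT replicates A to E, and at 8.94 (lowest), 12.1 (median) and 22.6 CPM (highest) in KO tumors. Apart from WT replicate E and KO replicate C, the tumors of both groups lay close together. Its log2 fold change was -0.28 (SE 0.38, edgeR adjusted p = 0.677) and 0.27 without WT replicate E. Adamts9, which encodes another versican-cleaving enzyme, was at 6.55, 23.6, 13.3, 21.03 and 36.6 CPM in WT replicates A to E, and at 10.6 (lowest), 17.5 (median) and 31.6 CPM (highest) in KO tumors. The means of both groups nearly coincided, at 20.3 ± 8.78 CPM for KO (SD, n = 6) and 20.2 ± 11.4 CPM for WT (SD, n = 5), and the log2 fold change was 0.0068 (SE 0.40, adjusted p = 0.993 in edgeR).

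WT replicate E had the highest level of all 11 tumors for 6 of the 10 members, and WT replicate A the lowest for 5. Without WT replicate E, 4 of the 10 members passed the edgeR threshold, all higher in KO tumors: Adamts2, Adamts4 and Adamts15, given above, and Adamts12 (log2 fold change 1.31, SE 0.33, edgeR adjusted p = 0.0361). In that fit 11.1% of all tested genes passed, and 3.63% of all tested genes passed with a higher level in KO tumors. At an unadjusted p under 0.05 there were 5 members, all higher, against 32.1% of all genes (13% higher and 19.1% lower). Without both WT replicates B and E, none of the 10 passed, 5 had an unadjusted p under 0.05 with a higher mean in KO tumors (background 23.1% in both directions and 9.89% in that direction), and 0.0118% of all genes passed. Without WT replicates A, B and C, a fit added after the values had been seen, none passed (0.0398% of all genes did, 0.0227% higher), and 2 members, Adamts5 and Adamts10, had an unadjusted p under 0.05 with a lower mean in KO tumors (background 17.2%, with 8.21% higher and 9.01% lower). The call for these members therefore turned on which WT tumors were included.

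**Figure D3:**
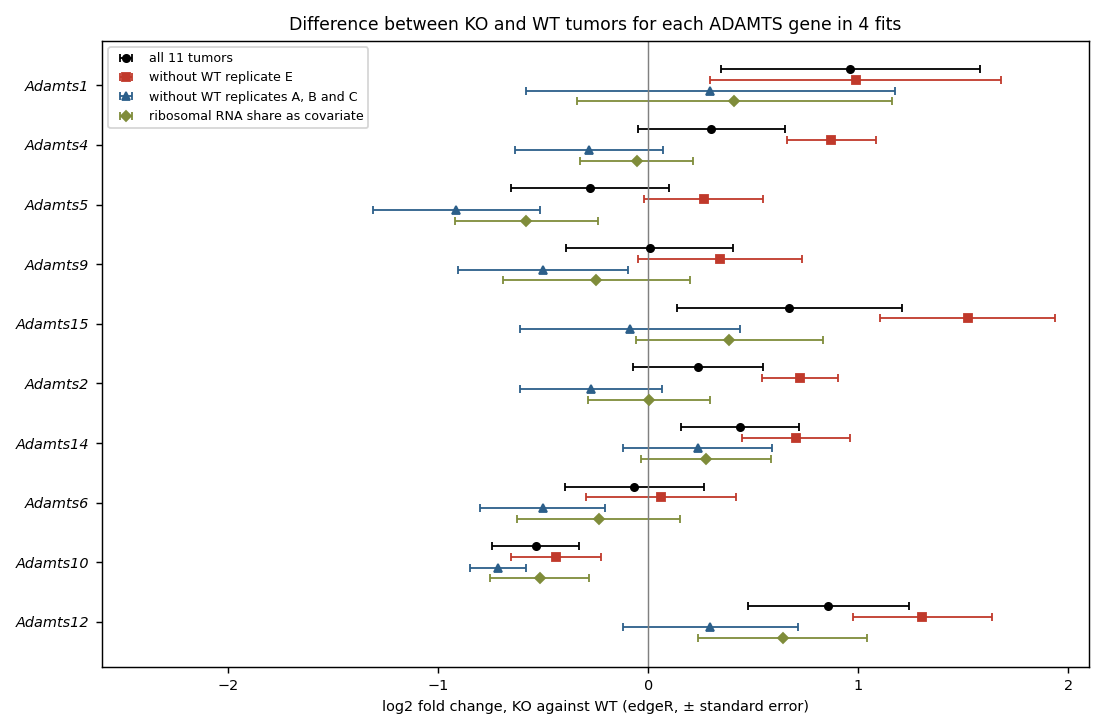
Log2 fold change of each ADAMTS gene between KO and WT tumors in edgeR, with bars for the standard error, for all 11 tumors (black circles), without WT replicate E (red squares), without WT replicates A, B and C (blue triangles) and with ribosomal RNA share as covariate (green diamonds). Adamts10 lies below 0 and Adamts12 above 0 in each of the 4 fits, while Adamts4 moves from 0.87 to -0.28.

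WT replicates E and A are set side by side here because several members had their highest or lowest level in them. Summed fibroblast markers (8 genes) were at 6322 CPM in WT replicate E and 1785 CPM in WT replicate A, the highest and lowest values of the 11 tumors. KO tumors ranged from 2855 to 6126 CPM. WT replicate E also had the most normal pancreas RNA, with acinar markers at 1932 CPM and islet markers at 332 CPM. Macrophage markers were lower in WT replicate E (1483 CPM) than in WT replicate A (2109 CPM), as were neutrophil markers (264 and 302 CPM). T cell, carcinoma epithelium and adipocyte markers were likewise lower in WT replicate E than in A. Mural cell, endothelial and B cell markers were higher in WT replicate E, at 558, 283 and 54.9 CPM, against 341, 183 and 24.0 CPM in A. Of 8 marker genes each, and against a background of 8.57% of all tested genes higher and 15.5% lower in KO tumors at an unadjusted p under 0.05, 8 B cell, 6 neutrophil and 4 macrophage genes were higher at that level. The same held for 3 of 7 tested adipocyte genes, while 3 carcinoma epithelium genes, 1 endothelial gene and 1 of 3 tested acinar genes were lower. For fibroblast, mural cell and T cell markers the count was 0 of 8 each, and for islet markers 0 of 1 tested. Summed B cell markers did not overlap between groups, at 59.3 to 144 CPM in KO and 15.6 to 54.9 CPM in WT tumors. The ranges of the other sums overlapped. In KO and WT tumors respectively, they were 287 to 2957 and 161 to 1070.0 CPM for neutrophil markers, 1724 to 3137 and 1285 to 2236 CPM for macrophage markers, and 2725 to 5617 and 3108 to 9488 CPM for carcinoma epithelium markers. Mural cell markers had medians of 411 CPM in KO and 443 CPM in WT tumors, with ranges of 364 to 518 and 246 to 599 CPM. Endothelial markers ranged from 192 to 284 and from 131 to 283 CPM, T cell markers from 82.1 to 466.2 and from 202 to 522 CPM, and adipocyte markers from 76.4 to 221 and from 61.3 to 256 CPM. No marker on these lists was at 0 in all tumors. The fibroblast marker level used as a covariate was not this sum but the mean log2(CPM + 1) of the fibroblast markers. That mean was highest in KO replicate C (7.86) and lowest in WT replicate D (6.58), with WT replicate E at 7.71 and A at 6.66. With this covariate, the log2 fold change was 0.67 for Adamts12 (edgeR unadjusted p = 0.0353, adjusted p = 0.236) and -0.60 for Adamts10 (edgeR unadjusted p = 0.0146, adjusted p = 0.20). Which cell types contributed to the levels of the members was not tested.

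The profile of each member over the 11 tumors was compared with those of the others, as the mean absolute difference in z scores of log2(CPM + 1), in which 0 would be an identical profile. The closest of the 45 pairs of members was Adamts4 with Adamts2 (0.315), followed by Adamts4 with Adamts15 (0.355), Adamts15 with Adamts2 (0.393) and Adamts2 with Adamts12 (0.424). The 4 genes in these pairs were the ones that passed the threshold without WT replicate E. Both results come from the same tumor values, so neither adds support to the other. The most distant pair was Adamts15 with Adamts10 (1.21). Of these 4 close pairs, only Adamts4 with Adamts15 shared a substrate group, and the neighbors Adamts1 and Adamts5 were not among them.

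**Figure D4:**
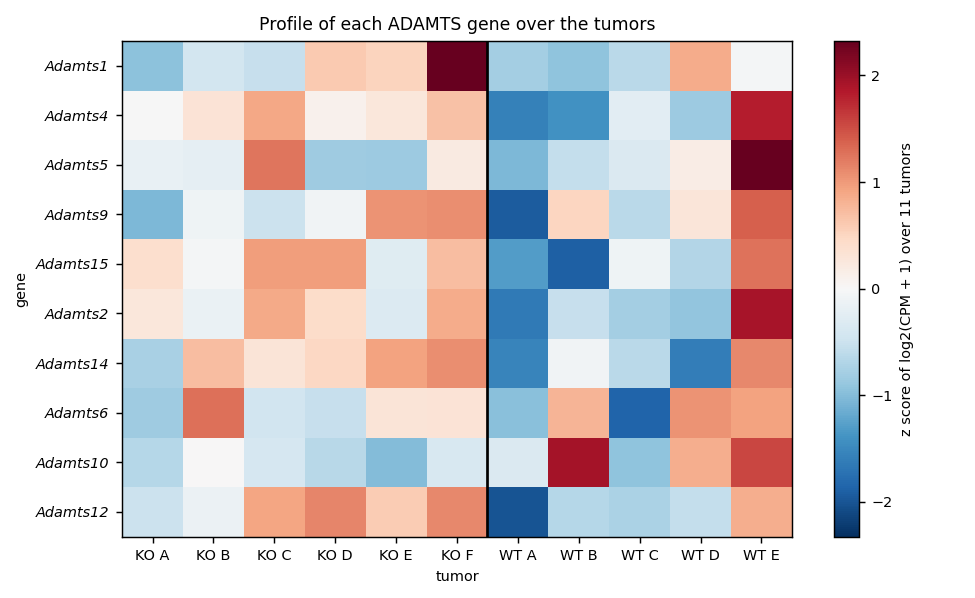
Profile of each ADAMTS gene over the 6 KO and 5 WT tumors, as the z score of log2(CPM + 1) over all 11 tumors (red above and blue below the mean of the gene, black line between groups). Adamts2, Adamts4, Adamts15 and Adamts12 show low values in WT replicates A to D and high values in WT replicate E, whereas Adamts10 is highest in WT replicate B.

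The genes nearest to each member in this measure, among 14898 tested genes with a mean of at least 1 CPM, are given as a description, with no test of their functions. Adamts2 was nearest to Aoc3 (0.182), Col1a1 (0.26) and Slc39a14 (0.27), and Adamts4 to Aoc3 (0.175), Dchs1 (0.231) and Cd248 (0.262). Adamts15 was nearest to Emilin1 (0.229), P3h1 (0.236) and Osr1 (0.244), and Adamts12 to Col5a2 (0.203), Sema5a (0.241) and Lama1 (0.247). Col1a1 and Col5a2 encode fibrillar collagen chains, P3h1 a collagen prolyl hydroxylase, Emilin1 an elastic fiber glycoprotein, and Cd248 a surface marker of fibroblasts and pericytes. Adamts14 was nearest to Rgma, Lamb1 and Thbs1 (0.336 to 0.368), and Adamts5 to Skp2, Col6a5 and Gm42047 (0.317 to 0.403). For the remaining members they were Pax3, Asb1 and Bcl2l11 for Adamts1 (0.293 to 0.416), Serinc5 and Ccdc93 for Adamts9 (0.323 and 0.378), Alg12, Recql5 and Gm14230 for Adamts6 (0.288 to 0.309), and Smyd5, Trappc13 and Zfp384 for Adamts10 (0.27 to 0.294). With 11 tumors and this many genes, some close profiles arise for any gene.

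Other genes of the ADAMTS system were examined next, in lists of family members, substrates, inhibitors and modifiers. Of 52 such genes, 42 were tested and none passed the edgeR threshold (0.0181% of all tested genes did). At an unadjusted p under 0.05 there were 8, all with a higher mean in KO tumors, where 8.57% of all tested genes reached that level in this direction and 15.5% in the other. DESeq2 gave 10 of 52, all higher, against 6.24% in that direction of 29689 genes, taken without the filter on low counts. The count was 4 without KO replicate C (background 20.9% in both directions) or without WT replicate A (20.1%), and 5 without KO replicate D (20.1%). It was 20 without WT replicate E, all higher, against 13% of all genes higher and 32.1% in both directions. The median log2 fold change of the 42 genes was 0.50, and 37 were above 0. Over all tested genes the median was -0.026, and 7943 of 16536 were above 0.

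Of the other 9 ADAMTS proteases, 5 passed the filter on low counts, and Adamts16 (log2 fold change 1.10, SE 0.47, edgeR adjusted p = 0.179) had an unadjusted p under 0.05. Adamts16 was at 0.694, 2.67, 2.90, 2.04 and 4.11 CPM in WT replicates A to E and from 2.38 to 10.3 CPM in KO tumors. Adamts7, the closest relative of Adamts12, was the most abundant, with means of 11.2 ± 4.16 CPM (KO, SD, n = 6) and 9.38 ± 4.62 CPM (WT, SD, n = 5), with a log2 fold change of 0.26 (SE 0.34). Adamts3, the other procollagen proteinase gene, stayed between 0 and 1.30 CPM. None of the 6 ADAMTS-like and papilin genes, which encode relatives without a protease domain, had an unadjusted p under 0.05, and the most abundant, Adamtsl4, had a log2 fold change of 0.56 (SE 0.32).

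Comp, which encodes the ADAMTS12 substrate COMP, was at 0.694, 0.25, 0.541, 0.548 and 1.24 CPM in WT replicates A to E and at 1.01 (lowest), 2.37 (median) and 3.25 CPM (highest) in KO tumors, and the log2 fold change was 1.75 (SE 0.43, adjusted p = 0.0852 in edgeR). These levels are low, near 1 CPM, and the groups overlapped through WT replicate E. Versican (Vcan) had a log2 difference of 0.75 (SE 0.40, adjusted p = 0.269 in edgeR) and aggrecan (Acan) of 0.39 (SE 0.45, edgeR adjusted p = 0.619). The hyaluronan receptor gene Cd44 was the most abundant on that list, with a log2 fold change of 0.019 (SE 0.27), and 4 of its 7 genes were too low to be tested. Fbn1, which encodes fibrillin-1, had a log2 difference of 0.60 (SE 0.39, adjusted p = 0.352 in edgeR), opposite in sign to Adamts10.

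Of the procollagen genes and their processing partners, 3 of 8 tested had an unadjusted p under 0.05, all with a higher mean in KO tumors, against 24% of all tested genes (8.57% higher). These were Tll1 (log2 fold change 1.95, SE 0.52, edgeR adjusted p = 0.0909) and Bmp1 (0.64, SE 0.25, edgeR adjusted p = 0.156), which encode the proteinases for the carboxy-terminal propeptide, and the type V collagen gene Col5a2 (0.72, SE 0.32, edgeR adjusted p = 0.197). Tll1 was at 0.781, 1.00, 3.14, 0.705 and 2.22 CPM in WT replicates A to E and from 2.54 to 12.5 CPM in KO tumors. The most abundant procollagen gene, Col3a1, averaged 2613 ± 1058 CPM in KO tumors (SD, n = 6) against 1520.0 ± 929 CPM in WT tumors (SD, n = 5), a log2 difference of 0.78 (SE 0.38, adjusted p = 0.228 in edgeR).

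Inhibition and clearance genes were examined because TIMP3 is the main tissue inhibitor of ADAMTS proteases and the endocytic receptor LRP1 removes them from the matrix. Timp3 was at 175, 119, 368, 259 and 274 CPM in WT replicates A to E and at 347 (lowest), 460 (median) and 734 CPM (highest) in KO tumors. KO and WT overlapped through WT replicate C, and the log2 fold change was 1.02 (SE 0.29, edgeR adjusted p = 0.0939). Lrp1 was at 90.5, 144, 230, 158 and 313.0 CPM in WT replicates A to E and at 313.6 (lowest), 366 (median) and 467 CPM (highest) in KO tumors. Its groups did not overlap, by a margin under 1 CPM, which held for 1 of the 42 tested related genes and for 3.6% of all tested genes, and the log2 fold change was 0.98 (SE 0.27, adjusted p = 0.0928 in edgeR). Timp2, the most abundant inhibitor gene, had a log2 fold change of 0.34 (SE 0.21), and Timp1 of -0.51 (SE 0.45). Of 8 activation and modification genes, Fbln1, which encodes a matrix protein that binds ADAMTS1, had an unadjusted p under 0.05 (log2 fold change 0.66, SE 0.27, edgeR adjusted p = 0.165). The most abundant of them, Sdc4, had a log2 fold change of -0.35 (SE 0.25), and Furin of 0.34 (SE 0.21, edgeR adjusted p = 0.321).

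**Figure D5:**
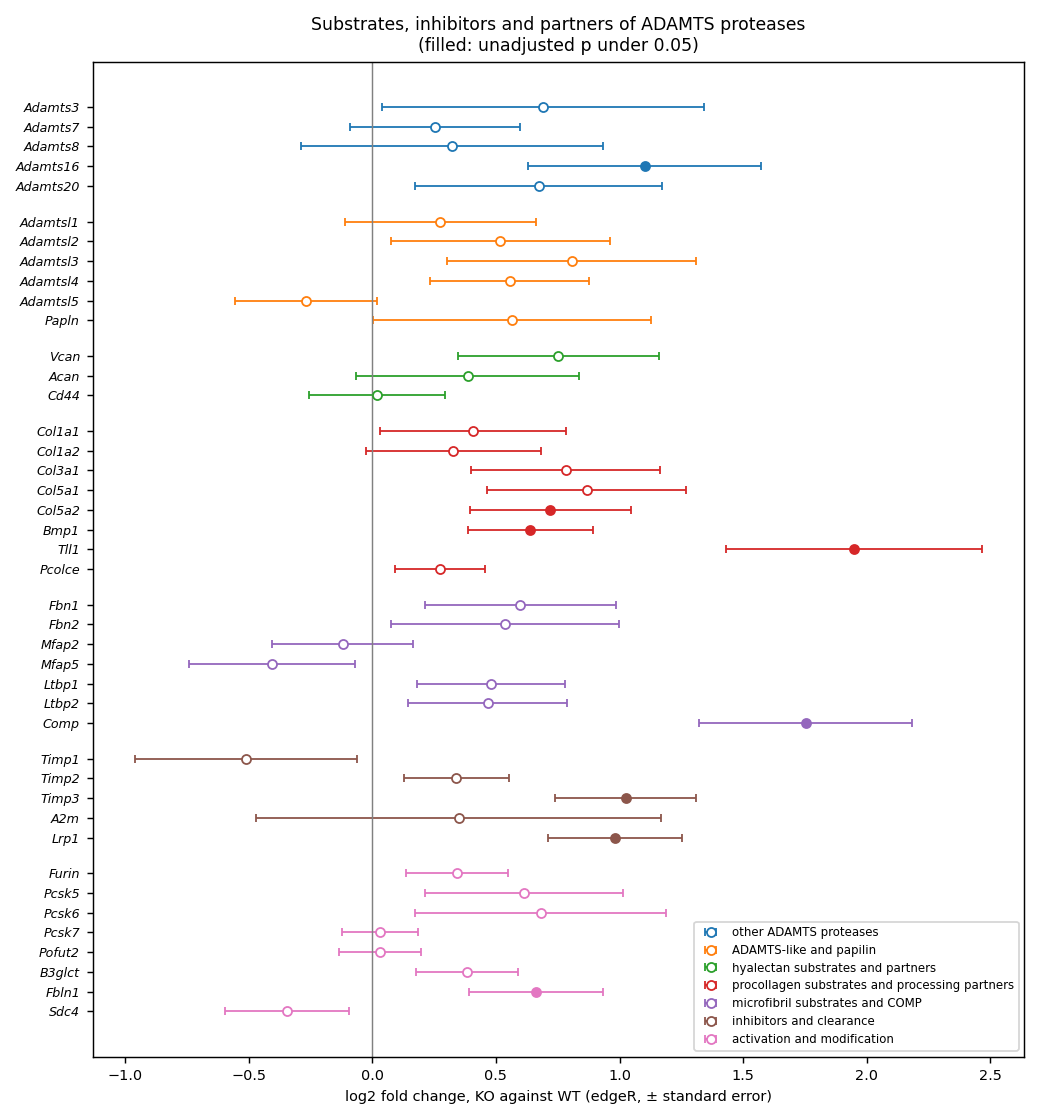
Log2 fold change between KO and WT tumors of the 42 tested substrates, inhibitors, relatives and modifiers of ADAMTS proteases in edgeR, with bars for the standard error, colors for the list and filled points for an unadjusted p under 0.05. The 8 filled points all lie to the right of 0, from 0.64 for Bmp1 to 1.95 for Tll1.

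Levels of each protease were last set against its lead substrate in the same tumor, as the log2 ratio of CPM + 1, which does not depend on library scaling beyond the pseudocount. The ratio of Adamts10 to Fbn1 was -2.13 ± 0.36 in KO tumors (SD, n = 6) and -0.83 ± 0.60 in WT tumors (SD, n = 5), ranging from -2.58 to -1.63 and from -1.73 to -0.15. These ranges met over a narrow stretch. The ratio of Adamts6 to Fbn1 was -3.57 ± 0.59 and -2.75 ± 0.52. Against Vcan, the mean ratio in KO tumors minus that in WT tumors was -1.03 for Adamts5 (-1.26 ± 0.53 and -0.23 ± 0.65). It was -0.80 for Adamts9 (-0.70 ± 0.89 and 0.098 ± 0.41), -0.40 for Adamts4 (-0.42 ± 0.49 and -0.017 ± 0.82) and -0.31 for Adamts1 (0.41 ± 1.27 and 0.72 ± 1.16). For Adamts15 it was 0.13, in the other direction (-0.45 ± 0.18 and -0.58 ± 1.29). The differences for Adamts4, Adamts1 and Adamts15 were smaller than the SD within either group. That for Adamts9 was smaller than the SD among KO tumors. The ratios of Adamts2 to Col1a1 (-3.99 ± 0.25 and -3.83 ± 0.28), Adamts14 to Col1a1 (-7.57 ± 0.47 and -7.44 ± 0.43) and Adamts12 to Comp (3.64 ± 0.78 and 3.67 ± 0.73) differed between groups by less than the spread within them. Ratios to Acan, the other substrate of the proteoglycan-cleaving members, were not computed. The log2 fold change was 0.39 for Acan and 0.75 for Vcan, so the ratio differences depend on the substrate chosen. No test was run on the ratios given here, whose substrates were paired after the values had been seen.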

How the data were processed

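RNA of each tumor was sequenced as a strand-specific library. Per the study's methods and processing notes, the authors trimmed paired-end reads with Trimmomatic, aligned them to mm10 (GRCm38) with HISAT2 2.1.0 and counted unique exonic alignments per gene with HTSeq 0.11.2. They deposited whole-number raw counts, used here, and a normalized table, not used, in which each raw count was divided by 1 factor per sample. Of 54232 identifiers, 54165 matched GENCODE M21, which gave symbols, positions and merged exon lengths.

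Counts were tested with edgeR 4.0.16 in R 4.3.3 (quasi-likelihood F-test, TMM normalization, default expression filter, no covariate, all 11 tumors, Benjamini-Hochberg adjustment over 16536 genes, threshold 0.05), and with DESeq2 1.42.0. SE is the absolute log2 fold change over the square root of F. The code was tested on simulated data. CPM uses TMM-scaled library sizes, log values a pseudocount of 1 CPM. No libraries agreed within sampling noise (lowest chi-square per degree of freedom 36.8). Counting limits such as 3 counts cover counting error only. The members, lists and tests were chosen with earlier results of these data known. Named genes were the 10 members, Pkn2, related genes at an unadjusted p under 0.05, the most abundant gene of each list and the 3 genes nearest to each member (1 of those is not reported here); Vcan, Acan, Adamts3, Timp1, Furin and the ratios were added after their values were seen, as were the TATA and GC box motifs. Alternatives were other scaling, filters, covariates, a replicate block, a length offset and left-out tumors.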

Additional observations from a re-analysis of the deposited data

Results flagged for a closer look

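In 72 groups of 5 or 6 tumors (members, named related genes and summed cell type markers), 14 values were isolated from the other values of the group by Dixon's criterion at 95%, where chance alone gives about 3.6. WT replicate E held 8 of them. They were Adamts4 at 43.7 CPM (other WT tumors 9.72 to 17.6), Adamts5 at 35.8 CPM (8.20 to 14.2), Adamts2 at 189 CPM (48.2 to 73.9), Col3a1 at 3128 CPM (823 to 1480.0), Col5a2 at 505 CPM (122 to 226), and the summed markers of B cells at 54.9 CPM (15.6 to 24.0), acinar cells at 1932 CPM (12.8 to 201) and islet cells at 332 CPM (0.167 to 66.3).

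In KO tumors, Adamts1 was at 199 CPM in replicate F (other KO tumors 16.7 to 55.1), where the summed islet markers were also high at 84.2 CPM (0.691 to 2.28), and summed acinar markers were at 667 CPM in replicate E (7.35 to 13.5). In WT tumors, Cd44 was at 697 CPM in replicate C (202 to 339), and replicate B had summed neutrophil markers at 1070.0 CPM (161 to 302) and adipocyte markers at 256 CPM (61.3 to 112). The causes of these values were not tested.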

How the results depend on the processing

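Each of the 10 members was refitted under 21 alternatives. Of the 210 log2 fold changes, 186 kept their direction and side of the threshold, 20 changed sign and 4 passed the threshold, the latter all without WT replicate E. Adamts1, Adamts10, Adamts12 and Adamts14 kept their sign in every alternative run. Leaving out 1 tumor at a time, the number of members called ranged from 0 to 4, while the share of all genes called ranged from 0 to 11.1%. At an unadjusted p under 0.05 there were 0 to 5 members and 4 to 20 related genes, against 16.3% to 32.1% of all genes. In these fits log2 fold changes ranged from -0.50 to 0.27 for Adamts5, from -0.22 to 0.34 for Adamts9 and from -0.26 to 0.085 for Adamts6. Without WT replicates B and E, 5 members and 21 related genes had an unadjusted p under 0.05, against 23.1% of all genes. In that fit the log2 fold change was 0.23 for Adamts5 and 0.24 for Adamts6. Without WT replicates A, B and C it was -0.28 for Adamts4, -0.50 for Adamts9, -0.085 for Adamts15 and -0.27 for Adamts2. With ribosomal RNA share as covariate, 0 members had an unadjusted p under 0.05, while the share of all genes at that level was 8.89% in place of 24%. Adamts10 was at -0.52 (edgeR unadjusted p = 0.0504), and the log2 fold change was -0.054 for Adamts4 and -0.25 for Adamts9. With the length offset 5 related genes had an unadjusted p under 0.05, against 23.1% of all genes, and Adamts9 was at -0.25. With the fibroblast covariate Adamts9 was at -0.063. The causes were not tested. No pairing of tumors by replicate letter was seen. Over 5 same-letter pairs, the correlation of deviations from group means across genes ran from -0.172 to 0.163, and 1 of 10 tumors was closest to its own letter. With so few pairs, this check cannot exclude a pairing. With the replicate block, 1 member had an unadjusted p under 0.05, against 15.8% of all genes, and Adamts9 was at -0.040. In that fit 9 genes in all passed, 8 higher and 1 lower, in place of 3. Depth was not limiting for the members, which had at least 40 counts in every tumor, whereas Comp fell to 3 counts in 1 tumor.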
